A study of Arabidopsis thaliana with 12 samples.

Results

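The Arabidopsis seedlings described here carried the genotype label naa20 in the Col-0 background. They gave 3 of the 12 poly(A) RNA libraries of the series, and every gene of the table that sets them against Col-0 was read. Each library came from pooled whole seedlings of 10 days of age, grown untreated on vertical plates, and the study calls the libraries of a group biological replicates. The naa20 line came from earlier work, and the study describes it as a mutant depleted of the N-terminal acetyltransferase NatB. Its allele and promoter are not given in the sources used here. The Col-0 wild type enters as 2 groups. The table of the naa20 comparison holds a Col-0 mean that, by the data statement of the study, stems from libraries of another series, and it is used only as the authors' mean. The second reference is the Col-0 group of this series, labelled WT, with 3 libraries of the same age and tissue. The labels of the WT group name neither a transgene nor a treatment, and the other Col-0 group has no sample labels in this series. The remaining 6 libraries of the series (doa10a/b RNAi 4-2 and amiNAA10) are not described.

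NAA20 is the catalytic subunit of the N-terminal acetyltransferase NatB, which works at the ribosome together with an auxiliary subunit, NAA25. NatB transfers an acetyl group to the initiator methionine of proteins whose next residue is aspartate, glutamate, asparagine or glutamine. NatA, with NAA10 as its catalytic subunit, acts on proteins that have lost the initiator methionine and begin with a small residue. Both complexes modify a large share of the cytosolic proteins of plants.

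The deposited values are mean normalized counts per group, and they sum to 21640000 for the group labelled naa20, 22444000 for the Col-0 of the same table and 21922000 for WT on the scale given below. The means carry enough digits that the reads of the single libraries could be worked out for genes with a mean of at most 1000 under the naa20 label and at most 6000 in WT. The libraries are called A, B and C here because they cannot be tied to the replicate numbers of the labels. For genes above 1000 under the naa20 label there is 1 mean and no spread between libraries. Values of WT were multiplied by 1.08, the factor that brings the median gene to a ratio of 1, and all WT values below are on that scale. Pearson correlations of log2 values over genes lay between 0.981 and 0.985 among the 3 libraries labelled naa20, between 0.9655 and 0.9817 among the 3 WT libraries, and between 0.91 and 0.9202 across the groups.

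A gene was called when the mean under the naa20 label differed by at least 1.5-fold in the same direction from both Col-0 means, and when it or the Col-0 mean of the same table reached 50 normalized counts. Of 33687 transcripts, 17378 met that floor. A gene could meet it through the group in which it was high, although its mean in the other group was lower than 50. By this rule 177 genes rose, 1.02% of those tested, and 295 fell, 1.70%. Both ratios share the mean under the naa20 label, so they are not independent. The 2 Col-0 groups also differed from each other, with 490 genes at least 1.5-fold higher in the Col-0 of the naa20 table (2.82%) and 517 lower (2.98%). That is more genes than were called for the naa20 label, but a call had to pass on both ratios and this comparison on a single ratio. The SD of the log2 ratio between the Col-0 means was 0.33. Against the Col-0 of the same table alone 312 genes were higher and 441 lower, and against WT alone 768 were higher and 1001 lower. As a test that uses the spread between libraries, limma on the recovered reads of 3 libraries labelled naa20 and 3 WT libraries called 1696 of 15781 genes higher (10.7%) and 2347 lower (14.9%) at an adjusted p under 0.05. Among called genes with a limma result, 137 of 143 that rose and 256 of 270 that fell also passed limma. The call and limma rest on the same naa20 and WT means, so this share was largely set by the call and is not separate support. The libraries labelled naa20 and those labelled WT may have been sequenced in different batches, the labels name none, and a batch and the genotype cannot be told apart in this test.

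**Figure D1:**
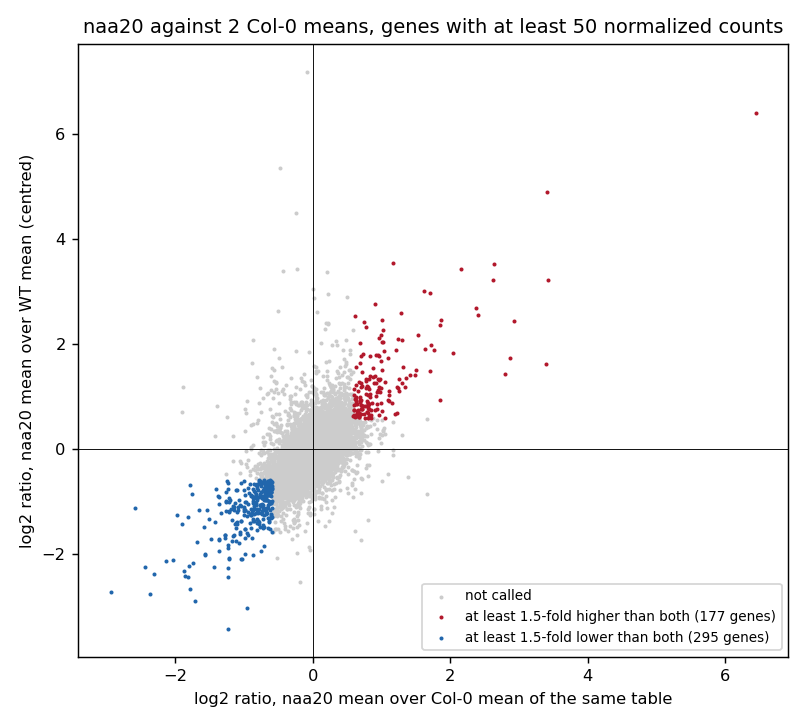
Log2 ratio of the mean under the naa20 label over the Col-0 mean of the same table (horizontal axis) and over the WT mean after centring on the median (vertical axis), with 1 point per gene of at least 50 normalized counts; the 3 genes listed at 0 in WT are not drawn. The 177 genes called higher lie in the upper right corner and the 295 called lower in the lower left corner, while many genes in grey move along the vertical axis alone.

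The transcript of NAA20 itself (AT1G03150, chromosome 1, positions 756414 to 758678 of the RefSeq TAIR10.1 annotation) was more abundant under the naa20 label. The 3 libraries labelled naa20 had 676, 692 and 672 normalized counts, the Col-0 of the same table averaged 275 and the 3 WT libraries had 320.2, 276 and 254. The groups did not overlap, and the log2 ratio was 1.31 over the Col-0 of the same table and 1.26 over WT (limma log2 difference 1.27, SE 0.09, adjusted p = 1.61e-06). Reads of the gene were therefore not lost, and the amount or activity of its protein was not measured here. With 1 value per gene it cannot be seen where along the gene the reads lie, so every direction below belongs to libraries labelled naa20. NAA20 was the only one of 10 acetyltransferase genes that was called. TCU2 (AT5G58450), which encodes the auxiliary subunit of NatB, had 751, 739 and 767 normalized counts in the libraries labelled naa20, against 732, 706 and 792 in WT libraries and a mean of 677 in the Col-0 of the same table. NAA10 (AT5G13780) averaged 1318 under the naa20 label, 1029 in the Col-0 of the same table and 954 in WT, with log2 ratios of 0.36 and 0.47 that stayed under 1.5-fold.

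Among the 12 largest rises were ICL, CT-BMY and QQS, grouped here for their link to the glyoxylate cycle or starch, a grouping that the annotation does not make. ICL (AT3G21720, isocitrate lyase of the glyoxylate cycle) had 806, 798 and 678 normalized counts in the libraries labelled naa20, against 59.5, 117 and 68.2 in WT libraries and a mean of 123 in the Col-0 of the same table. The lowest library labelled naa20 lay above the highest WT library, and the log2 ratios were 2.62 and 3.22 (limma adjusted p = 3.27e-07). MLS, the malate synthase that follows isocitrate lyase in the same cycle, had 75.3, 74.2 and 66.7 normalized counts under the naa20 label, against 27.3, 31.5 and 22.0 in WT libraries and a mean of 25.7 in the other Col-0. Its log2 ratios were 1.49 and 1.42, and limma gave an adjusted p of 0.000400. CT-BMY (AT4G17090), a chloroplast beta-amylase that degrades starch, averaged 29136 under the naa20 label, 9408 in the Col-0 of the same table and 7794 in WT, with log2 ratios of 1.63 and 1.90. PWD (AT5G26570), a phosphoglucan, water dikinase that prepares starch granules for degradation, averaged 2568 under the naa20 label, against 1656 in the Col-0 of the same table and 1098 in WT, with log2 ratios of 0.63 and 1.23. QQS (AT3G30720), a gene named for its effect on leaf starch, had 183, 221 and 272 normalized counts under the naa20 label, against 39.0, 48.9 and 42.9 in WT libraries and 62.4 in the other Col-0. BAM6 (AT2G32290), a gene named as a beta-amylase, fell instead, with 108, 102 and 115 normalized counts in libraries labelled naa20, against 266.5, 291 and 208 in WT libraries and a mean of 274 in the Col-0 of the same table. MLS, PWD and BAM6 were named after their values were seen, and no list of such genes was counted.

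The other large rises fell on genes of which the annotation says little. The non-coding RNA gene AT1G67105 had 452, 569 and 451 normalized counts in libraries labelled naa20, against 49.8, 56.6 and 50.6 in WT libraries and a mean of 45.8 in the Col-0 of the same table. Its log2 ratios were 3.42 and 3.23 (limma adjusted p = 1.12e-08), and the Col-0 mean lay close to the WT libraries. The uncharacterized gene AT5G66052 averaged 2846, against 548 in the Col-0 of the same table and 442 in WT. AT5G35935 and AT4G37030, also uncharacterized, had log2 ratios of 2.93 and 2.44 and of 1.51 and 1.51. For the cupin gene AT5G38910 the references lay far apart, with means of 18.203 in the Col-0 of the same table and 62.4 in WT, against 191 under the naa20 label. The second cupin gene of the set, AT4G36700, had 299, 438 and 286 normalized counts under the naa20 label and 38.1, 81.6 and 7.70 in WT libraries, which also differed widely among themselves. The remaining named genes that rose were AT3G28510, a P-loop nucleoside triphosphatase (1.87 and 2.45), AT5G24640 (1.70 and 2.97) and AT2G38823 (1.53 and 2.17), given as log2 ratios over the Col-0 of the same table and over WT.

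The 12 largest falls belonged to genes of various annotation. NEET (AT5G51720), an iron-sulphur cluster protein, had 50.8, 74.2 and 110.2 normalized counts under the naa20 label, against 485, 510 and 603 in WT libraries and a mean of 404 in the Col-0 of the same table. The groups did not overlap, and the log2 ratios were -2.37 and -2.76 (limma adjusted p = 1.73e-06). KIN1 (AT5G15960), a small protein induced by cold and abscisic acid, had 79.0, 91.2 and 81.9 normalized counts, against 328, 400.2 and 459.8 in WT libraries and 292 in the other Col-0 (log2 ratios -1.80 and -2.24, limma adjusted p = 3.84e-07). Its neighbour KIN2 (AT5G15970), a close copy whose reads may be shared with KIN1, had log2 ratios of -0.68 and -0.79. ARR7 (AT1G19050), a type A response regulator that cytokinin induces, had 63.0, 74.2 and 80.9 normalized counts, against 325, 319.7 and 349 in WT libraries and 243 in the other Col-0. TIP2;3 (AT5G47450), a tonoplast aquaporin, had log2 ratios of -1.79 and -2.67, and BGLU7 (AT3G62740), a beta glucosidase, of -1.71 and -2.91. GASA5 (AT3G02885), a small peptide gene related to gibberellin responses, stood at -1.43 and -1.40. For CIPK20 (AT5G45820), a protein kinase regulated by calcium sensors, the WT libraries ranged from 83.7 to 365 normalized counts and the libraries labelled naa20 from 32.1 to 81.9, so that the groups nearly met (limma adjusted p = 0.00455). The uncharacterized genes AT5G26270 (-2.31 and -2.38) and AT3G15310 (-2.45 and -2.25) are given as log2 ratios.

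Root hair genes fell as a group. Root hairs are outgrowths of single root epidermis cells, and the list holds their transcription factors and the expansins, extensins, proline-rich proteins and peroxidases of their wall. Of 21 members 20 passed the floor, 16 fell and none rose, beside 1.70% of all genes that fell. The median log2 ratio was -0.95 over the Col-0 of the same table and -1.05 over WT, beside 0.00 over all genes for both. In 19 of 20 the 3 libraries labelled naa20 all lay below the 3 WT libraries, which held for 22.9% of all genes with 6 libraries, while 19.9% of all genes lay above. Limma called the same number, 19, lower, beside 1983 of 12954 genes in all. The 2 Col-0 groups themselves were close for these genes, with a median log2 ratio of -0.16 between them.

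PRP1 (AT1G54970), a proline-rich wall protein, had 24.5, 30.1 and 32.3 normalized counts in libraries labelled naa20, against 124, 131 and 97.9 in WT libraries and a mean of 85.6 in the Col-0 of the same table (limma adjusted p = 1.46e-05). EXT12 (AT4G13390), an extensin, had 51.7, 65.2 and 62.7 normalized counts, against 211, 224 and 175 in WT libraries and 136 in the other Col-0. RHS19 (AT5G67400), a root hair specific peroxidase, had 131, 165 and 141, against 351, 461 and 339 in WT libraries and 313 in the other Col-0. Each of these genes was lower in every library labelled naa20 than in any Col-0 value. The transcription factors did not move alike. RSL2 (AT4G33880), which drives hair elongation, had 32.9, 60.2 and 32.3 normalized counts under the naa20 label, against 108, 171 and 117 in WT libraries and 93.2 in the other Col-0. RSL4 (AT1G27740), its close relative, did not reach the floor, with 16.9, 15.04 and 18.196 normalized counts against 54.7, 60.9 and 37.4 in WT libraries (limma adjusted p = 0.000979). RHD6 (AT1G66470), which acts before both in hair initiation, had 81.8, 111 and 75.8 normalized counts under the naa20 label and 74.2, 94.6 and 50.6 in WT libraries, and these ranges overlap. In whole seedlings, fewer hairs or less RNA per hair cell cannot be told apart.

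**Figure D2:**
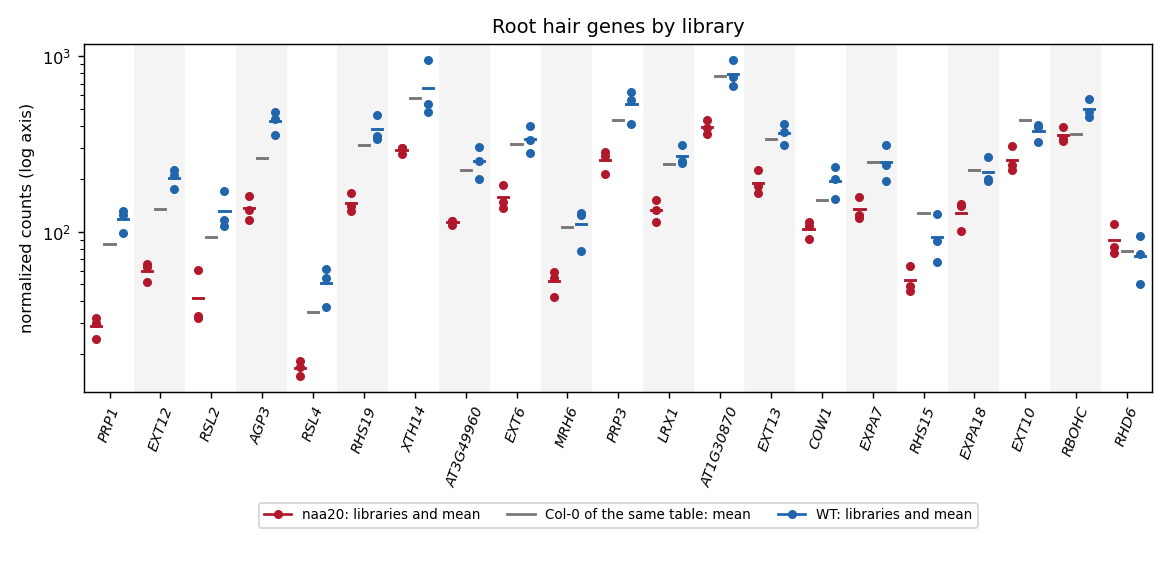
Normalized counts (log axis) of the 21 root hair genes, ordered by their ratio over WT. Red points are the 3 libraries labelled naa20 with their mean as a bar, the grey bar is the Col-0 mean of the same table, and blue points are the 3 WT libraries with their mean; red lies below blue in all but RHD6, the rightmost gene.

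Wall families chosen after the calls were seen gave mixed counts. Of 21 xyloglucan endotransglucosylase/hydrolase (XTH) genes above the floor 7 fell and 1 rose, and of 16 expansins 4 fell, beside 1.70% of all genes that fell and 1.02% that rose. Of 46 genes annotated as peroxidases 8 fell and 2 rose. XTH31 (AT3G44990) averaged 1060.1 under the naa20 label, against 2346 in the Col-0 of the same table and 3325 in WT, while XTH24 (AT4G30270) averaged 5263, against 3281 in the Col-0 of the same table and 2840 in WT. Among the peroxidases, AT4G26010 had 151, 207 and 189 normalized counts under the naa20 label, against 561, 809 and 435 in WT libraries and 509 in the other Col-0. Members of the root hair list are among these families, so the counts overlap.

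Of the iron deficiency genes some rose and some fell, and most were not called. BHLH38, BHLH39, BHLH101 and AT1G47395 rose, while AT3G12900, FRO2, CYP82C4, IRT1 and the regulator FRU fell. Arabidopsis roots take up iron by reducing ferric ions with FRO2 and importing ferrous ions through IRT1, and both genes are activated by the bHLH factor FIT (FRU in RefSeq) together with bHLH38, bHLH39, bHLH100 and bHLH101. Of 24 list members 23 passed the floor, 4 rose and 5 fell, beside 1.02% of all genes that rose and 1.70% that fell. The medians of the list (0.18 and 0.67) therefore describe neither group. FRO2 (AT1G01580) averaged 1107 under the naa20 label, against 3317 in the Col-0 of the same table and 3187, 3401 and 2708 in WT libraries. IRT1 (AT4G19690) averaged 3859, against 7644 in the Col-0 of the same table and 7125 in WT. FRU (AT2G28160) had 269.97, 231 and 281 normalized counts in libraries labelled naa20, against 549, 533 and 562 in WT libraries and 460.5 in the other Col-0 (limma adjusted p = 4.69e-06). The means of all 3 genes were lower under the naa20 label than either Col-0 mean.

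The oxygenase gene AT3G12900, which the list includes for coumarin synthesis under iron deficiency, had log2 ratios of -2.94 and -2.74 (limma adjusted p = 0.000134). It had 25.4, 28.1 and 10.109 normalized counts under the naa20 label, against 139.6, 198 and 85.8 in WT libraries and 163 in the other Col-0. CYP82C4 (AT4G31940), a cytochrome P450 that acts on coumarins, averaged 2219, against 6420 in the Col-0 of the same table and 4954 in WT. Outside the list, IRT2 (AT4G19680) and NAS3 (AT1G09240, a nicotianamine synthase) also fell, with log2 ratios of -1.85 and -2.42 and of -1.81 and -2.44. IRT2 and NAS3 were picked after their values were seen.

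Among the bHLH partners of FRU 3 of 4 rose. BHLH38 (AT3G56970) averaged 1989.6 under the naa20 label, against 978 in the Col-0 of the same table and 349, 635 and 253 in WT libraries. BHLH39 (AT3G56980) averaged 2996, against 1502 in the Col-0 of the same table and 651, 947 and 403 in WT libraries. BHLH101 (AT5G04150) had 293, 297 and 198 normalized counts under the naa20 label, against 96.6, 136 and 53.9 in WT libraries and 159 in the other Col-0. Every value under the naa20 label was above every Col-0 value, but the Col-0 of the same table was itself above each of the WT libraries. BHLH100 averaged 1345 under the naa20 label and 965 in the Col-0 of the same table, under 1.5-fold, and 321 in WT. The fourth called gene, AT1G47395, encodes a short uncharacterized protein and averaged 1221 under the naa20 label, against 649.95 in the Col-0 of the same table and 181 in WT. The related short genes AT1G47400 and AT2G30766 were not called, with log2 ratios of 0.22 and 2.39 and of 0.18 and 2.29. WT library B had the highest value of the 3 WT libraries in each of these genes. The ferritins, iron stores of the plastid, were not called. FER1, FER3 and FER4 had log2 ratios of -0.25, 0.05 and -0.08 over the Col-0 of the same table and of -0.68, -0.42 and -0.87 over WT, where limma gave adjusted p of 0.000710, 0.00157 and 0.00166.

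**Figure D3:**
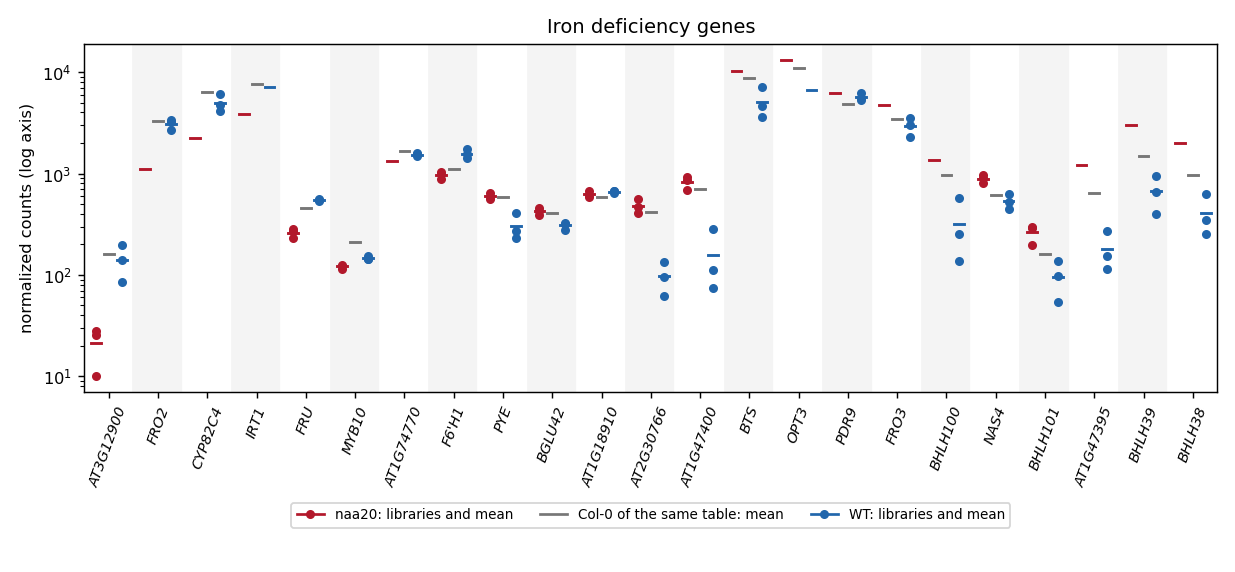
Normalized counts (log axis) of 23 iron deficiency genes above the floor, ordered from low to high by the ratio of the mean under the naa20 label over the Col-0 of the same table. Red marks the libraries labelled naa20 and their mean (the mean alone above 1000), grey the Col-0 mean of the same table and blue the WT libraries and their mean; FRO2 and IRT1 stand at the left, below both Col-0 groups, and BHLH38 and BHLH39 at the right, above both.

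Genes of the mitochondrial dysfunction response rose, although the 2 Col-0 groups also differed in them. This response is the set of nuclear genes that are switched on when mitochondrial electron transport fails, through NAC factors such as NAC13 and NAC017 that are held at the endoplasmic reticulum. All 15 members passed the floor, 9 rose and none fell, beside 1.02% of all genes that rose. Some that rose, such as NDB4 and AT2G04070, passed the floor only through their mean under the naa20 label, which favours a rise. In 11 of 12 with 6 libraries all libraries labelled naa20 lay above all WT libraries, beside 19.9% of all genes. The median log2 ratio was 0.63 over the Col-0 of the same table and 1.33 over WT, and it was 0.56 between the Col-0 groups. AT2G41730, annotated as a calcium-binding site protein, had 467, 556 and 497 normalized counts under the naa20 label, against 72.2, 132 and 48.4 in WT libraries and 207 in the other Col-0 (limma adjusted p = 8.93e-06). AT2G04070, a MATE efflux gene, had 80.9, 64.2 and 107 normalized counts, against 0.976, 13.1 and 7.70 in WT libraries and 13.5 in the other Col-0. AT2G32020, an acyltransferase gene, had 195, 191 and 194 normalized counts under the naa20 label, against 76.1, 109 and 42.9 in WT libraries and 75.3 in the other Col-0, so that the Col-0 means nearly coincided. NDB4 (AT2G20800), an alternative NAD(P)H dehydrogenase, had 55.5, 53.1 and 53.6, against 2.93, 8.70 and 2.2002 in WT libraries and 24.008 in the other Col-0. AOX1A (AT3G22370), the alternative oxidase most used as a marker of this state, averaged 2755 under the naa20 label, 1959 in the Col-0 of the same table and 1329 in WT, and its first log2 ratio of 0.49 was under 1.5-fold. AOX1D, an alternative oxidase outside the list, did pass, with log2 ratios of 2.80 and 1.42. The factors NAC13 and NAC017 themselves had log2 ratios of 0.03 and -0.02 over the Col-0 of the same table.

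These NAC factors are known to bind a motif in promoters that reads CTTG, 5 further bases, and CAAG or CACG. In the 500 bases before the annotated gene start, on either strand, the motif was present in 15 of 170 genes that rose (8.82%), 2 of 286 that fell (0.699%) and 277 of 17202 genes searched (1.61%). In the 1000 bases before the start the shares were 11.8%, 4.55% and 3.78%. Of the 15 list members 5 held it within 500 bases (33.3%), and of the 9 members that rose 3 held it (33.3%). The list was written from prior knowledge of this response, so its share of the motif reflects how it was written and is not a result of the counts. NAC017 and CRF6, list members that were not called, also held it, so within the list the motif did not follow the calls. The sites below are those of the called list members and of 3 named genes from the largest rises, shown because they show the motif in its surroundings. Each is given from 5′ to 3′ in the direction of the motif, from the RefSeq TAIR10.1 sequence, with the fixed letters of the motif in capitals.
AT2G21640, a marker of oxidative stress, chr2:9254319-9254347, plus strand: tttagtaaCTTGctctcCAAGgagatcta
AT2G04050, a MATE efflux gene, chr2:1339604-1339632, minus strand: tatacgaaCTTGgtcccCAAGtatatttc
AT2G04050, a further site, chr2:1339663-1339691, minus strand: tattagaaCTTGattccCAAGtaatcttt
AT5G51440, a small heat shock protein gene, chr5:20891045-20891073, plus strand: ttattttaCTTGgagacCACGcagttcta
AT5G66052, uncharacterized, chr5:26416060-26416088, plus strand: atcaatgtCTTGatcatCAAGtctcactt
AT5G24640, uncharacterized, chr5:8436264-8436292, plus strand: attaatttCTTGgtggaCAAGcatgtttg
AT2G38823, uncharacterized, chr2:16223910-16223938, minus strand: acgaggatCTTGctcccCACGccaaggta
These sites lie 39 to 203 bases before the annotated starts. AT2G21640 had 227, 263 and 269.9 normalized counts under the naa20 label, against 45.9, 97.9 and 64.9 in WT libraries and 123 in the Col-0 of the same table. AT2G04050 had 135, 207 and 166, against 40.02, 54.4 and 30.8 in WT libraries and 105 in the other Col-0, and AT5G51440 had 695, 735 and 621, against 363, 417 and 248 in WT libraries and 440.3 in the other Col-0. A match of letters is a description and does not show that a factor binds there.

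Subunits of the proteasome were higher under the naa20 label as a set, most of them by less than 1.5-fold. The 20S core is the barrel that cleaves proteins, and the 19S particle caps it, binds ubiquitin chains and unfolds the substrate. All 24 genes of the 20S core had means above both Col-0 means, beside 6168 of 17378 genes in all. Of the 24, 3 rose and none fell, beside 1.02% of all genes that rose. The median log2 ratio of the core was 0.37 over the Col-0 of the same table and 0.37 over WT, and the Col-0 groups differed by a median of only 0.02. PBD2 (AT4G14800) averaged 1696 under the naa20 label, against 968 in the Col-0 of the same table and 802, 915 and 795 in WT libraries. PBB2 (AT5G40580) averaged 1218 (752 in the Col-0 of the same table, and 682, 724 and 639 in WT libraries), and PAD2 (AT5G66140) averaged 1267 (777 in the Col-0 of the same table, and 754, 697 and 809 in WT libraries). For the 19 core genes that have only a mean under the naa20 label, all 19 means lay above every WT library. That set is chosen by a mean above 1000 under the naa20 label, which favours this direction. No share over all genes was counted for it, so this count cannot be weighed and is no support for a rise. Of the 5 with library values limma called 3 higher, beside 1570 of 12954 genes in all. The limma log2 differences were 0.29, 0.27 and 0.47 for PAE2, PBC2 and AT3G26340 (adjusted p = 0.00810, 0.0133 and 0.00107). Near-identical copies such as PBB1 and PBB2 can share reads, so the split within a pair is less certain than their sum.

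In the 19S particle 31 of 32 genes passed the floor, and 24 had means above both Col-0 means, beside 6168 of 17378 genes in all. Of the 31, 4 rose and none fell, beside 1.02% of all genes that rose. The median log2 ratios were 0.30 and 0.29. The ATPase gene AT5G20000 averaged 1948 under the naa20 label, against 992 in the Col-0 of the same table and 921, 985 and 854 in WT libraries, while its close copy RPT6A averaged 1720.4 under the naa20 label and 1744 in the Col-0 of the same table, with log2 ratios of -0.02 and -0.09. RPT5B (AT1G09100) averaged 1021, against 633 in the Col-0 of the same table, and RPT2A (AT4G29040) averaged 4062 against 2635. MEE34 (AT3G11270), a non-ATPase lid subunit, had 523, 540.4 and 512 normalized counts under the naa20 label, against 350.5, 312 and 303 in WT libraries and 304 in the other Col-0 (limma adjusted p = 5.99e-05). NAC053 and NAC2, which encode the factors known to activate proteasome genes, were not called, with log2 ratios of 0.24 and 0.00 and of -0.10 and 0.09. The activator PA200 was at 0.46 and 0.57 and the unfoldase CDC48A at 0.43 and 0.42, both under 1.5-fold. The letters TGGGC, the core of the element these NAC factors bind, occurred within 500 bases before the start in 15 of 24 core genes (62.5%) and 16 of 31 genes of the 19S particle (51.6%), beside 36.1% of all genes searched.

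**Figure D4:**
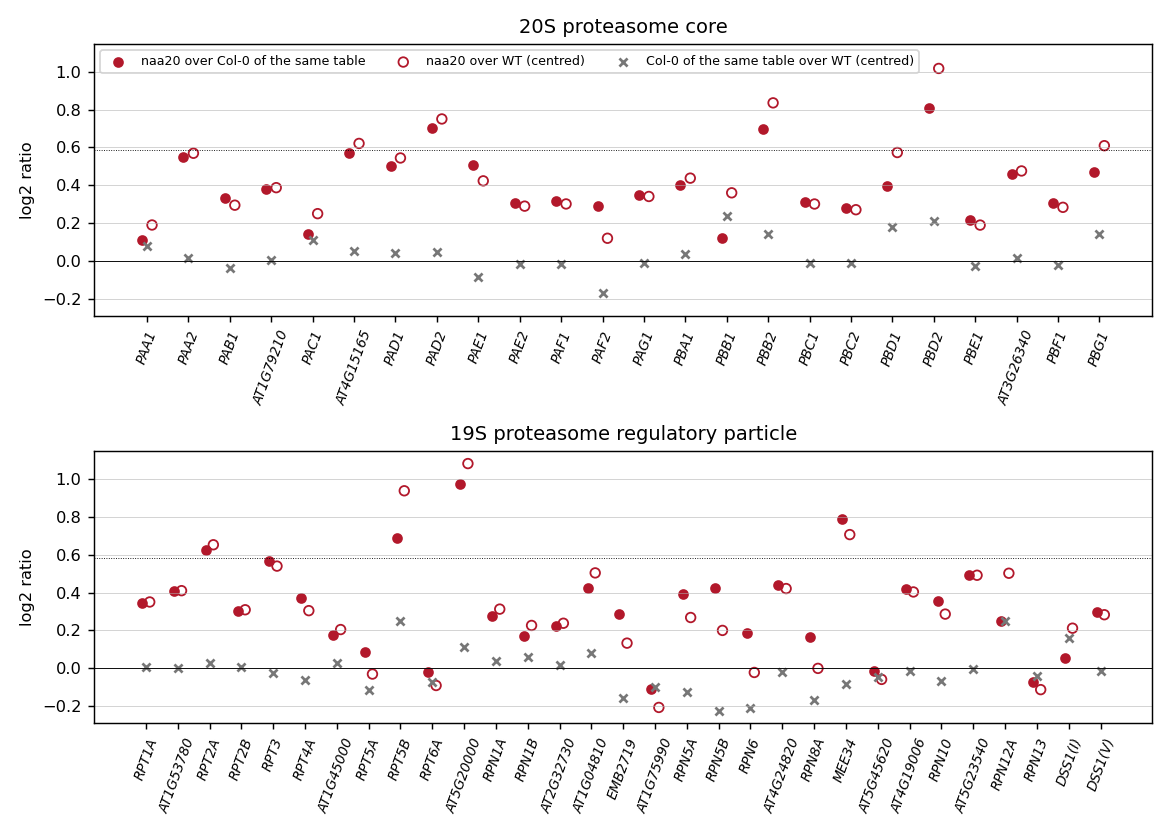
Log2 ratio for each gene of the 20S core (upper panel) and of the 19S particle (lower panel). Filled circles give the mean under the naa20 label over the Col-0 of the same table, open circles that over WT and crosses the ratio between the 2 Col-0 means; the dotted line marks 1.5-fold, and both circles are above 0 for all 24 genes of the core.

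Nuclear genes of the photosystems and their antennae were lower. They encode the chlorophyll-binding and core proteins that capture light, and the list adds the small subunit of Rubisco and its activase. None of the 39 members lay above both Col-0 means, 36 lay below both, beside 6038 of 17378 genes in all, and 9 fell, beside 1.70% of all genes. The median log2 ratio was -0.44 over the Col-0 of the same table and -0.41 over WT, with 0.03 between the Col-0 groups. Their means summed to 2360600 normalized counts under the naa20 label, 3111500 in the Col-0 of the same table and 2980900 in WT. LHCB2.3 (AT3G27690), an antenna gene of photosystem II, averaged 10055 under the naa20 label, 22157 in the Col-0 of the same table and 21778 in WT. LHCB2.2 averaged 41114 against 70156 in the Col-0 of the same table, LHCB3 53268 against 88223, and LHCB1.1 71232 against 128960. The LHCB1 and LHCB2 genes are near-identical copies, so reads may be split among them. RBCS1A averaged 250470 under the naa20 label, 244520 in the Col-0 of the same table and 259320 in WT, and RCA was at -0.10 and 0.00 on the log2 scale. These genes are too abundant for library values, so none has a test. Transcripts of the plastid genome, of which 9 passed the floor after poly(A) selection, were lower than both means in 8 cases, and 1 fell, ATCG00490 for the large subunit of Rubisco, with 48.0, 50.1 and 81.9 normalized counts against 157, 154 and 191 in WT libraries and 97.9 in the other Col-0.

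In the lists that follow, 1 or 2 members were called, beside 1.02% of all genes that rose and 1.70% that fell. Counts this small describe single genes and not the lists. In the list of endoplasmic reticulum chaperones 1 of 18 rose, BIP3 (AT1G09080), an Hsp70 that is induced by unfolded proteins. It had 232, 209 and 137 normalized counts under the naa20 label, against 43.0, 84.8 and 28.6 in WT libraries and 83.3 in the other Col-0, whereas BIP1 and BIP2 were at -0.12 and -0.09 over the Col-0 of the same table. NAC103 (AT5G64060), a factor of the unfolded protein response that lies outside the list, had 82.8, 79.2 and 90.0 normalized counts, against 15.6, 18.5 and 8.80 in WT libraries and 15.9 in the other Col-0. BZIP60, which acts before both, averaged 1612, with log2 ratios of 0.31 and 0.70. Of 18 cytosolic heat shock genes 2 fell. HSP70 (AT3G12580) averaged 2534 under the naa20 label, against 4486 in the Col-0 of the same table and 5643, 7386 and 4679 in WT libraries, and the co-chaperone ROF2 (AT5G48570) had 147, 142 and 131 normalized counts, against 448, 542 and 369.6 in WT libraries and 338 in the other Col-0.

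NIA2 (AT1G37130), the major nitrate reductase, averaged 44051 under the naa20 label, 26333 in the Col-0 of the same table and 27955 in WT, and it was the only one of 7 nitrate genes that rose. Among salicylic acid genes, ALD1 (AT2G13810), an aminotransferase of pipecolic acid synthesis, had 95.9, 95.2 and 93.0 normalized counts, against 20.5, 26.1 and 38.5 in WT libraries and 13.026 in the other Col-0. In glucosinolate synthesis CYP79F1 (AT1G16410) had 804, 894 and 880.5 normalized counts, against 2519, 1809.7 and 2459.8 in WT libraries and 1485 in the other Col-0, and CYP83B1 (AT4G31500) averaged 1646 against 2565 in the Col-0 of the same table. Both are cytochromes P450 of the pathway. Of 24 genes of this list 16 had means below both Col-0 means and 4 above both, beside 6038 and 6168 of 17378 genes in all. Limma called 12 of 16 lower than WT and 0 higher, beside 1983 and 1570 of 12954 genes in all. The median log2 ratio was -0.12 over the Col-0 of the same table and -0.53 over WT, with -0.34 between the Col-0 groups. SQE6 (AT5G24160), a squalene epoxidase-like gene, averaged 1352, against 775 in the Col-0 of the same table and 579, 685 and 516 in WT libraries. SQE1 (AT1G58440), the epoxidase of sterol synthesis on which the study centres, averaged 1080.0 against 1087 in the Col-0 of the same table (log2 ratios -0.01 and -0.06), and SQE5 was at -0.57 and -0.37. The ligase genes DOA10A and DOA10B had log2 ratios of 0.12 and 0.17 and of 0.04 and -0.04.

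In the clock list, which marks the time of harvest, PRR3 (AT5G60100) was the only one of 20 genes above the floor that was called, with 155, 137 and 171 normalized counts against 23.4, 39.2 and 22.0 in WT libraries and 76.8 in the other Col-0. PRR7 had 652, 647 and 717 normalized counts under the naa20 label, against 1174, 1098 and 1261 in WT libraries, and 943 in the other Col-0. Against WT limma called 7 of 12 clock genes higher and 3 lower, beside 1570 and 1983 of 12954 genes in all. Genes outside this list were not counted for the clock. A difference in harvest time between the groups cannot be told apart from the genotype, in this list or in any other gene described here. No gene of the cell cycle list was called, although 18 of 21 had means below both Col-0 means, beside 6038 of 17378 genes in all. Limma called 14 of 20 lower than WT, beside 1983 of 12954 genes in all with 6 libraries and a mean above the floor, at a median log2 difference of -0.50. Of the seed storage genes only 1 of 14 passed the floor.

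For several lists the direction depended on which Col-0 was the reference. Flavonoid and anthocyanin genes had a median log2 ratio of -0.45 over the Col-0 of the same table and 1.05 over WT, with 1.49 between the 2 Col-0 groups, and none of 18 was called. PAP1, a MYB activator of anthocyanin synthesis, had 793, 806 and 1264 normalized counts under the naa20 label, against 106, 321 and 114 in WT libraries and 836 in the other Col-0. Sulphur deficiency genes had medians of -0.45 and 0.73, phosphate starvation genes of -0.34 and 0.31, and the abscisic acid, drought and cold list of -0.37 and 0.07. SDI1 (AT5G48850), a sulphur deficiency gene, averaged 3217 under the naa20 label, 5880 in the Col-0 of the same table and 763 in WT. The medians had opposite signs in 9 of the 28 lists.

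**Figure D5:**
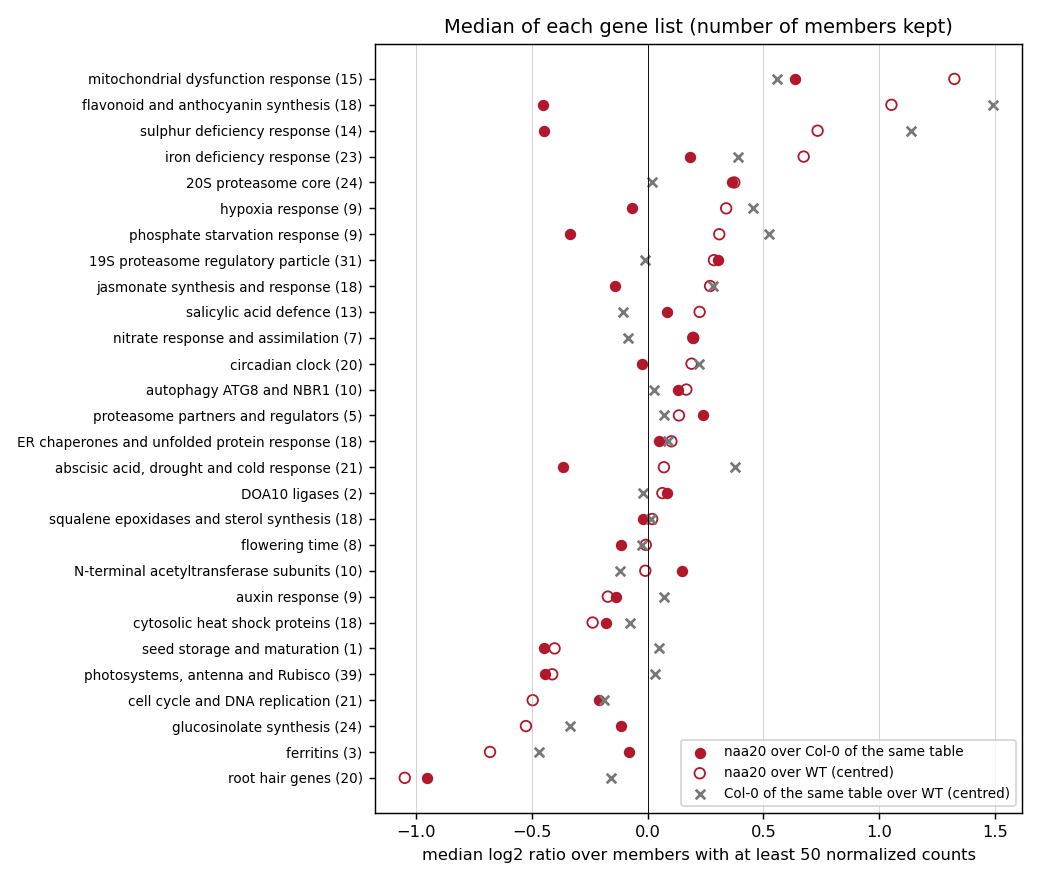
Median log2 ratio of 28 gene lists over members of at least 50 normalized counts, with the number of members in brackets. Filled circles give the naa20 label over the Col-0 of the same table, open circles over WT and crosses the Col-0 of the same table over WT; circles coincide near 0.37 for the 20S core and near -1 for root hair genes and lie on opposite sides of 0 for the flavonoid and sulphur lists.

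The residue by which NatB chooses its substrates was looked up for every gene, as a description. Of 163 genes that rose and have a protein in RefSeq, 38 encode aspartate, glutamate, asparagine or glutamine after the initiator methionine (23.3%), as do 62 of 285 that fell (21.8%) and 3871 of 17098 over all (22.6%). Residues that NatA uses stood there in 54.6%, 61.1% and 54.6%. The transcript log2 ratios of the NatB class had medians of 0.01 and 0.00, beside 0.00 over all genes.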

How the data were processed

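Poly(A) RNA of whole Arabidopsis seedlings was sequenced in 3 libraries labelled naa20 and 3 Col-0 libraries labelled WT. The values the authors deposited are a signal, the mean over the libraries of a group of gene counts after scaling by size factors. The same tables hold the authors' own log2 fold changes, p-values and adjusted p-values, which were neither used nor printed. The submitters' processing notes list TopHat2 2.0.12, Bowtie2 2.2.3, HTSeq 0.6.1, DESeq 1.18.0 and TAIR10, whereas the methods of the study name HISAT2, DESeq2 and edgeR, and which of these made the values is not settled. A further 2 columns hold a Col-0 mean of libraries from another series by the data statement, used as the authors' mean without SD or n. Tables were scaled separately, so WT ratios were centred on their median (a factor of 1.08), and levels set across tables rest on that step.

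The means of the group labelled naa20 carry 10 digits and those of WT 15, so whole reads per library were solved for up to means of 1000 and 6000. Genes above these limits have no library values, which conditions on the level under the naa20 label. A call needed at least 1.5-fold over both Col-0 means and a mean of at least 50, with no test. Limma 3.58.1 in R 4.3.3 tested log2(value + 1) with a mean-variance trend for genes with a mean of at least 10, adjusted by the Benjamini-Hochberg method, two-sided. It was added after seeing the data, since the design had assumed means only, and its p-values measure the spread between libraries alone. The steps were tested on simulated data. Python 3.11.15 was used for the rest.

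The 28 lists (499 genes) and the members described were chosen with earlier results of these data known. Named were the acetyltransferase genes, the 12 genes with the largest rise and the 12 with the largest fall by the smaller of both absolute log2 ratios (mean of at least 100 in the higher group, above 0 in all means), up to 4 called members of each list, and genes the study names. Any other gene, and the wall families, were chosen after their values were seen. RefSeq TAIR10.1 gave names, coordinates and sequence for 32835 of 33687 transcripts (97.5%). Alternatives were other folds, floors, pseudocounts, centrings and references, and leaving out each library.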

Additional observations from a re-analysis of the deposited data

How the results depend on the processing

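The counts of 177 genes higher and 295 lower under the naa20 label moved most with the floor and the reference. They were 333 and 601 with a floor of 10, 93 and 125 with a floor of 200, and 1246 and 1460 with none. A 2-fold limit left 51 and 77. With the Col-0 of the same table as the only reference 312 genes were higher and 441 lower, and with WT alone 768 were higher and 1001 lower. The comparison of the 2 Col-0 means gave 1816 genes with a floor of 10 and 521 with a floor of 200, against 1007. A pseudocount of 5 (165 and 270) and other centrings (176 to 201 and 266 to 299) stayed within 1.5 times. The added demand of a limma adjusted p under 0.05 left 137 and 256. It also dropped called genes without a limma result, as only 143 that rose and 270 that fell had one. Limma rests on the same naa20 and WT means as the call, so this demand is not separate support. Leaving out each library gave 167 to 199 genes higher and 287 to 355 lower. For limma it gave 1077 to 1954 higher and 1619 to 2527 lower, against 1696 and 2347, and without library naa20 A the count of genes higher was 1077, a move of over 1.5 times. The median had the opposite sign with WT as the reference in 9 of 28 lists. In the 4 of these whose median over the Col-0 of the same table was at least 0.33 in size, the SD of the log2 ratio between the Col-0 means, it was 1.053 for flavonoid and anthocyanin synthesis, 0.0698 for abscisic acid, drought and cold, 0.7339 for sulphur deficiency and 0.309 for phosphate starvation. The cause was not tested. Of the other lists 18 moved by less than that SD and 6 by more. The limma settings and leaving out libraries were chosen after seeing the data. No paired analysis was possible because the recovered libraries carry no replicate number. Genes with a mean above 1000 under the naa20 label have no library values, so their ratios have no error.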

Other observations

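For 3 called genes the WT libraries were listed at 0, so no fold is given. AT3G18535, annotated as a tubulin-tyrosine ligase, had 237, 241 and 223 normalized counts in libraries labelled naa20, against 0 in each WT library and a mean of 0.982 in the Col-0 of the same table. The other groups of the series also had it, with authors' means of 189 in doa10a/b RNAi 4-2 and 299.8 in amiNAA10, each on the scale of its own table. AT2G01422 had 126, 89.2 and 105 normalized counts in libraries labelled naa20, against 0 in each WT library and a mean of 0.714 in the Col-0 of the same table, and its means were 1.98 in doa10a/b RNAi 4-2 and 11.5 in amiNAA10. AT3G42090 had 58.3, 56.1 and 52.6 normalized counts in libraries labelled naa20 and 0 in all Col-0 values. RE2 (AT4G02960), which carries the name of a retroelement, had 47.0, 67.2 and 49.5 normalized counts in libraries labelled naa20, against 0, 3.26 and 2.2002 in WT libraries and a mean of 5.15 in the Col-0 of the same table. These genes were picked after their values were seen.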
